A study of Caenorhabditis elegans with 6 samples.

Results

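This comparison set adult Caenorhabditis elegans with a slicing-inactive form of the Argonaute CSR-1 against worms with its normal form, across all genes. SIN is strain OD1175 and WT is strain OD1463. Per the labels, worms of each strain carried 2 copies of the csr-1(tm892) deletion and of both transgenes of that strain. They came from balanced heterozygous mothers, from whose progeny they were picked by how they moved. The csr-1 transgene is the slicing-inactive form in SIN and the normal form in WT. What else the transgenes carry is not given here. N2, the non-transgenic laboratory strain, entered the model of the spread and is given where it bears on a value. The labels do not spell out SIN; that it is slicing-inactive is from what is known of the study. Each library was made from 100 gravid adults kept at 20 °C on OP50 bacteria, with 2 libraries a strain. SIN and WT are each a single strain, and the labels do not say whether the 2 libraries came from separate cultures, so p-values measure the spread between libraries, which may be technical. Of 46748 genes in the deposited table, 24486 had a count and 15404 passed the filter on low counts and were tested.

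Argonaute proteins bind small RNAs that lead them to transcripts of matching sequence, and some, among them CSR-1, can cut the paired transcript. CSR-1 works mainly in the germ line and is required for fertility and for chromosome segregation in the embryo. Its guides are 22G RNAs, short antisense RNAs that begin with G and are copied from the transcripts by the polymerase EGO-1 with the helicase DRH-3 and the Tudor protein EKL-1. Slicing-inactive means that the residues which cut RNA are altered, so the comparison asks which transcript levels differ when CSR-1 is present but cannot cut.

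The SIN libraries held 39865531 and 34654600 counts and the WT libraries 42126710 and 33739391. Across genes, log2 levels correlated within strains with r = 0.99 for SIN, 0.9888 for WT and 0.9715 for N2, whose spread also enters the shared model. Libraries were of messenger RNA, made with a stranded kit and run on a single lane; whether counting used the strand was not given in the sources used here, and levels of genes that overlap on opposite strands may hold reads of both. Levels of 1 gene across libraries are in CPM, counts scaled to library size with TMM; levels of different genes are in TPM, which also divides by gene length and was taken over tested genes without TMM, so its ratios differ slightly from fitted folds. A gene rose or fell where the adjusted p of edgeR's quasi-likelihood test was under 0.05. The worms were whole, so fewer cells of a type and less RNA per cell cannot be told apart.

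The csr-1 transcript itself (chromosome IV, 7957267 to 7962157, WBcel235) had 2913 and 3308 CPM in SIN, against 662 and 636 CPM in WT, and N2 had 446 and 476 CPM. Both SIN libraries lay far above the other strains, and SIN was 4.79-fold higher than WT (adjusted p = 0.000223). Reads of the transgene and of the chromosomal remnant fall in the same row, which frpr-10 also overlaps on the same strand, and the row shows neither the deletion nor the altered residues. The difference in csr-1 level goes with the difference in slicing in every value below, and its part in them was not tested. The largest gain in mean TPM was in klp-7 (chromosome III, 10805925 to 10811001), whose kinesin takes microtubules apart at their ends, with 2156 and 2083 CPM in SIN, against 236 and 236 CPM in WT, and N2 had 159.5 and 163 CPM (8.98-fold higher, adjusted p = 5.94e-05). The calls of csr-1 and klp-7 held with any single SIN or WT library left out.

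In SIN, 1871 genes rose (12.1% of those tested) and 2051 fell (13.3%). Rises were fewer but larger: the median fold among called genes was 2.58 for rises and 1.55 for falls, and a 4-fold change or more was found in 663 rises and 39 falls. Both SIN libraries lay above both WT libraries in 5910 genes (38.4%) and below them in 5395 (35%). The 2 directions lay in different parts of the abundance range. The median WT level of genes that rose was 3.63 CPM and of genes that fell 59.1 CPM. Among the least abundant of 5 sets of equal size by mean TPM, 488 of 3081 rose and 22 fell (median log2 fold change 0.76), whereas in the most abundant set 405 rose and 877 of 3081 fell (median -0.21). The filter keeps a rare gene that is high in a single strain, so rare genes that passed it through their SIN level had to be higher there, and counts of rises among rare genes carry that choice.

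How many genes passed depended on the libraries in the fit. Without SIN replicate 1, 334 rose and 306 fell, and without SIN replicate 2 430 and 145. Without WT replicate 1 the counts were 252 and 89, and without WT replicate 2 328 and 144; counts of a gene list after leaving out 1 library are given below in this order. Without N2 replicate 1 they were 3231 and 3362, and without N2 replicate 2 3244 and 3375. All 3922 called genes kept the sign of their fold change in each of the 4 fits without a SIN or WT library, and 225 rises and 75 falls also stayed past the threshold in all 4. Of the 67 counts of 5 or more rises or falls in a gene list, 66 were lower by over 1.5 times without some SIN or WT library, the exception being the rises of spindle genes. Under upper-quartile scaling the median over all genes was higher on the log2 scale by 0.137, with 2329 rises and 1227 falls, so that rises were 65.5% of the calls against 47.7%.

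Among called genes whose libraries did not overlap between SIN and WT, the 10 largest gains in mean TPM included genes of cell division, of the eggshell and of germ granules. After klp-7, with 1398 and 1348 TPM in SIN, against 135 and 133 TPM in WT, and csr-1, the rise in mean TPM was largest for perm-4, which is needed for the permeability barrier of the egg (2632 and 2624 TPM in SIN, against 1575 and 1441 TPM in WT; 1.53-fold higher, adjusted p = 0.0131). Next came ttr-51, of the transthyretin-like family (1668 and 1398 TPM in SIN, against 450 and 467 TPM in WT; 2.93-fold higher, adjusted p = 0.00143), and perm-2, also of the eggshell barrier (3014 and 2713 TPM in SIN, against 1903 and 1695 TPM in WT; 1.4-fold higher, adjusted p = 0.0246). In all 3 genes both SIN libraries exceeded both WT libraries, as the choice required. The kinesin genes klp-16 and klp-15, near-identical copies whose reads may be divided between them, reached 1031 and 927 TPM in SIN, against 148 and 151 TPM in WT, and for the second gene 996 and 908 TPM in SIN, against 158 and 157 TPM in WT. The centromeric histone gene hcp-3 had 1101 and 1015 TPM in SIN, against 262 and 250 TPM in WT, and the germ granule helicase gene glh-1 980 and 1165 TPM in SIN, against 300 and 316 TPM in WT. An unnamed gene, T07A9.14 (chromosome IV, 386699 to 387949), had 967 and 993 TPM in SIN, against 71.2 and 80.2 TPM in WT and was 11.4-fold higher (adjusted p = 5.94e-05). N2 lay below WT in some of them: hcp-3 had 92.1 and 92.8 CPM in N2, against 178 and 172 CPM in WT. ttr-51, klp-16, klp-15, hcp-3, glh-1 and T07A9.14 passed with any single SIN or WT library left out. perm-4 and perm-2 did not pass once any SIN or WT library was left out (adjusted p up to 0.216).

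Among the 10 largest losses in mean TPM, chosen in the same way, were genes of protein synthesis and folding. The elongation factor gene eef-1A.1, which brings tRNAs to the ribosome, had 6989 and 7431 TPM in SIN, against 10211 and 10065 TPM in WT (1.6-fold lower, adjusted p = 0.0194). The Y-box gene cey-2, which encodes an RNA-binding protein of the germ line, had 2585 and 2523 TPM in SIN, against 4163 and 3864 TPM in WT (1.79-fold lower, adjusted p = 0.009). For the chaperones, daf-21, the HSP90 gene, had 1924 and 2352 TPM in SIN, against 3349 and 3760 TPM in WT, and hsp-1, the constitutive HSP70 gene, 2000 and 2392 TPM in SIN, against 3349 and 3567 TPM in WT. Every SIN library lay below every WT library in these 4 genes, as the choice required. The ribosomal protein genes rla-0, rps-9, rps-17 and rpl-10 were 1.7-fold, 1.66-fold, 1.65-fold and 1.65-fold lower, and ndk-1, a nucleoside diphosphate kinase gene, and R09B3.3 were 1.72-fold and 1.75-fold lower (adjusted p from 0.0183 to 0.0498). Leaving out any SIN or WT library ended the calls of eef-1A.1, cey-2, daf-21, hsp-1, rla-0, rps-9, rps-17, rpl-10, ndk-1 and R09B3.3 (adjusted p up to 0.264). eef-1A.1, daf-21, rps-9, rps-17 and rpl-10 did not pass with upper-quartile scaling (adjusted p up to 0.105).

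**Figure D1:**
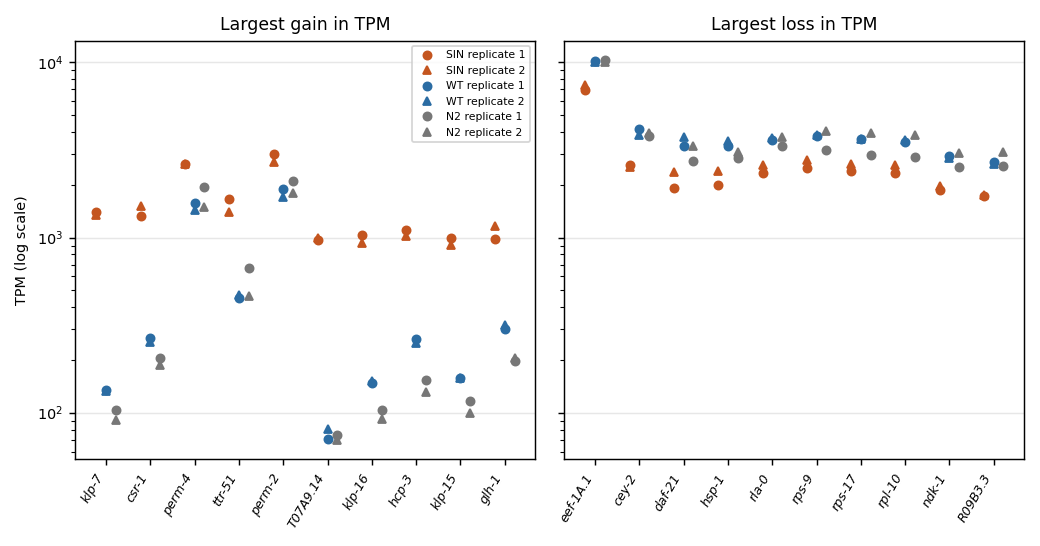
Levels in TPM (log scale) of the 10 genes with the largest gain and the 10 with the largest loss in mean TPM in SIN over WT, among called genes whose SIN and WT libraries did not overlap; each point is 1 library, circles replicate 1 and triangles replicate 2. klp-7 and T07A9.14 stand 8.98-fold and 11.4-fold above WT in SIN, whereas the abundant genes on the right differ by 1.6-fold for eef-1A.1 and 1.9-fold for daf-21.

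Genes with the most 22G RNA rose more often than they fell, and those with the least fell more often than they rose. The authors' table lists a 22G RNA score, taken from an earlier study by Claycomb, for 4114 of the tested genes, with no values under 25. Divided by score into 4 sets of nearly equal size, set 4, with the highest scores (176 to 4096), had 416 rises and 88 falls among 1029 genes, with a median log2 fold change of 0.22. In set 3 113 of 1029 rose and 220 fell (median -0.11), in set 2 46 and 318 of 1034 (median -0.24), and in set 1 24 and 470 of 1022 (median -0.41). Of the 100 genes with the most 22G RNA, 78 rose and 2 fell, with a median log2 fold change of 1.05. Over all tested genes the shares were 12.1% and 13.3% and the median 0.04.

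Score and fold change correlated across genes with Pearson's r = 0.54 and a Spearman coefficient of 0.53 (both on the log2 scale, 4114 genes, which are not independent). Each SIN library against each WT library gave r of 0.53 to 0.56. The score divided by the N2 level in TPM correlated with r = 0.59; the N2 level alone had r = -0.31. Longer genes had higher scores (r = 0.42), and the score per base kept r = 0.35. For 22G RNA in a CSR-1 immunoprecipitate from a study by Conine, in RPM (reads scaled to library size) for 5253 tested genes, r was 0.26 and the Spearman coefficient 0.34. There 472 of 1314 genes in the highest of 4 sets rose and 189 fell, against 74 and 470 of 1313 in the lowest. The order over sets also held with upper-quartile scaling, with medians of -0.27, -0.11, 0.03 and 0.36 from lowest to highest score; in set 3 rises then outnumbered falls, 198 to 100. With 1 library left out, SIN replicates first, 195, 222, 146 and 157 genes of set 4 rose and 87, 36, 21 and 32 of set 1 fell.

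**Figure D2:**
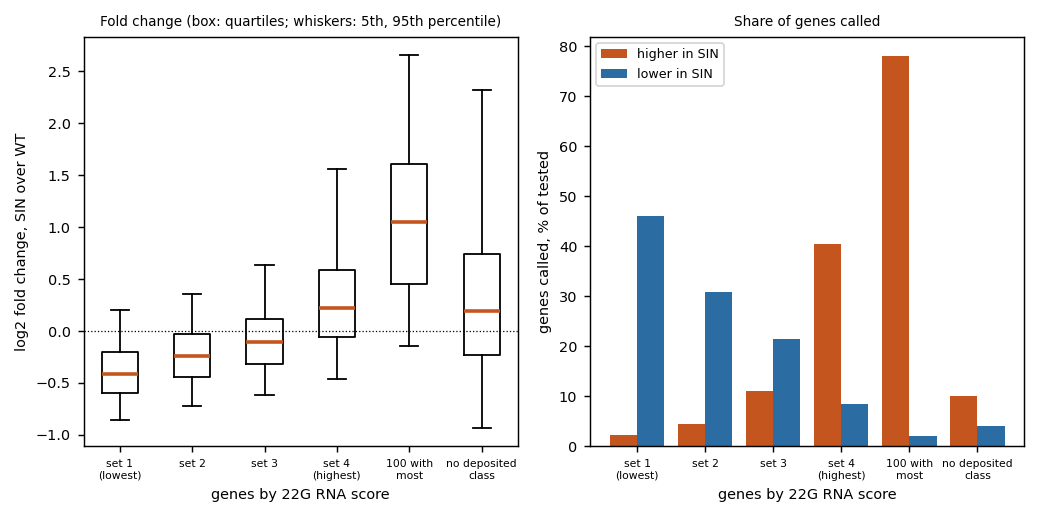
Left, log2 fold change of SIN over WT for tested genes by set of the 22G RNA score, for the 100 genes with the most 22G RNA and for genes in no deposited class, as boxes from the 25th to the 75th percentile with whiskers at the 5th and 95th percentiles; right, percent of each set called higher or lower. The median is -0.41 in set 1, 0.22 in set 4 and 1.05 in the top 100, and the wide box of genes in no class covers many rare transcripts.

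Among genes with high scores the rises reached far. T12E12.3 (chromosome IV, 5541627 to 5544748), now named tebp-2 for its telomere-binding protein, has a score of 969 and had 938 and 1085 CPM in SIN, against 48.4 and 47.8 CPM in WT, and N2 had 43.8 and 40.5 CPM (21-fold higher, adjusted p = 5.94e-05). The spindle-positioning gene gpr-1 (score 872) had 248 and 226 CPM in SIN, against 21.1 and 20.7 CPM in WT (11.3-fold higher, adjusted p = 5.94e-05), with reads possibly shared with its near-copy gpr-2. The histone chaperone gene unc-85 (score 823) had 550.4 and 498 CPM in SIN, against 125 and 121.9 CPM in WT (4.25-fold higher, adjusted p = 0.000142). SIN and WT stood wide apart in all 3, and N2 was at or below WT for T12E12.3. At the low end, lip-1, a phosphatase gene that restrains MAP kinase in germ cells, has a score of 28.3 and had 48.5 and 47.4 CPM in SIN, against 136 and 132 CPM in WT (2.79-fold lower, adjusted p = 0.000205). Genes went against the gradient at both ends. taf-11.2, which encodes a subunit of the transcription factor TFIID, has a score of 45 yet had 305 and 269 CPM in SIN, against 69.1 and 68.4 CPM in WT (4.18-fold higher, adjusted p = 0.000298). cey-2, with a score of 213 in set 4, fell 1.79-fold. The calls of T12E12.3, gpr-1, unc-85, lip-1 and taf-11.2 held with any single SIN or WT library left out. For cey-2 leaving out any one of the SIN or WT libraries ended the call (adjusted p up to 0.0989).

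Germline-specific and germline-expressed genes, as classed in the deposited table, fell more often than they rose, and germline-enriched genes were nearly balanced. Of 1056 germline-specific genes 75 rose and 438 fell (median log2 fold change -0.36), of 4624 germline-expressed genes 516 rose and 1340 fell (median -0.22), and of 2713 germline-enriched genes 566 rose and 613 fell (median 0). Within the germline-specific class the 22G RNA gradient recurred. Of its genes in set 4 62 of 231 rose and 36 fell, and of those in set 1 2 of 215 rose and 123 fell. Of 8280 genes in none of the deposited classes, 827 rose and 338 fell (median 0.19). These were 9.99% and 4.08%, both under the 12.1% and 13.3% of all genes. Their median WT level was 1.59 CPM, and the limit that the filter sets on rises among rare genes applies to them. Genes listed in the immunoprecipitate without a 22G RNA score numbered 1527, of which 310 rose and 295 fell. With upper-quartile scaling 112 germline-specific genes rose and 231 fell, for germline-expressed genes the counts were 729 and 783, and for germline-enriched genes the balance turned, with 668 rises and 400 falls. With 1 library left out 63, 21, 15 and 26 germline-specific genes fell. Genes in no class that rose then numbered 57, 94, 52 and 71. The P granule helicase gene glh-4 and D2005.4 had the lowest p among rises in no class, with 301 and 330.4 CPM in SIN, against 95.7 and 96.3 CPM in WT, and for the second gene 262 and 253 CPM in SIN, against 95.3 and 95.2 CPM in WT (adjusted p = 0.000252 and 0.000329). C50E3.11 fell, with 3.8 and 3.93 CPM in SIN, against 29.5 and 29.4 CPM in WT (7.61-fold lower, adjusted p = 0.000169). glh-4, D2005.4 and C50E3.11 passed with any single SIN or WT library left out.

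Genes of chromosome segregation rose more often than the background, whereas those of the cell cycle and DNA replication fell more often than they rose with TMM. Of 52 spindle, centrosome and cytokinesis genes 24 rose and 8 fell (median log2 fold change 0.28), of 27 kinetochore and spindle checkpoint genes 11 rose and 3 fell (median 0.06), and of 42 meiotic chromosome factors 24 rose and 6 fell (median 0.43). As shares the rises were 46.2%, 40.7% and 57.1%, against 12.1% of all genes and 40.4% of all genes in set 4 of the 22G RNA score. That set held 35 of the spindle, 15 of the kinetochore and 15 of the meiotic genes. The kinetochore median was near the 0.04 of all genes. Whether these lists differ from other genes of like score was not tested. Of the 48 cell cycle and replication genes 6 rose (12.5%) and 14 fell (29.2%, against 13.3% of all genes), with a median of -0.16. This balance turned with upper-quartile scaling, to 10 rises and 9 falls. The score of 22G RNA was higher in the genes that rose: among spindle genes its median was 639 for the 24 that rose with a score and 118 for the 8 that fell, and among kinetochore genes 574 for 11 and 101 for 2.

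Several genes of microtubule attachment and of homolog pairing rose. The microtubule-stabilising gene cls-2 had 1081 and 1216 CPM in SIN, against 174 and 199 CPM in WT (6.16-fold higher, adjusted p = 0.00258), and spdl-1, which recruits dynein to kinetochores, 302 and 269.8 CPM in SIN, against 67 and 64 CPM in WT (4.37-fold higher, adjusted p = 0.000205). The inner kinetochore gene hcp-4 had 474 and 401 CPM in SIN, against 207 and 190.5 CPM in WT (2.2-fold higher, adjusted p = 0.00573). SIN and WT did not overlap in any of them. Tubulins differed among themselves: tba-1 and tbb-2 fell 1.37-fold and 1.34-fold, while tbb-1 had 1414 and 1431 CPM in SIN, against 1162 and 1154 CPM in WT and did not pass (adjusted p = 0.114). In meiosis, the kinase gene chk-2, which starts homolog pairing and break formation, had 124 and 157 CPM in SIN, against 10.8 and 10.9 CPM in WT (12.9-fold higher, adjusted p = 0.00103). The synapsis gene syp-4 had 292 and 273 CPM in SIN, against 151 and 148 CPM in WT, and sun-1, which ties chromosome ends to the nuclear envelope, 248 and 227 CPM in SIN, against 179.8 and 173 CPM in WT (1.89-fold and 1.34-fold higher, adjusted p = 0.00137 and 0.0196). Of the replication genes, mcm-4, a subunit of the helicase that opens DNA, had 169.6 and 143 CPM in SIN, against 340.3 and 322 CPM in WT (2.12-fold lower, adjusted p = 0.0054), and pcn-1, the sliding clamp gene, 487 and 429.6 CPM in SIN, against 639.6 and 616 CPM in WT (1.37-fold lower, adjusted p = 0.0254). The mitotic kinase gene cdk-1 moved the other way, with 826 and 778 CPM in SIN, against 409.5 and 385 CPM in WT (2.02-fold higher, adjusted p = 0.00162), and its partner cyb-3, a B cyclin gene, was 1.48-fold lower (adjusted p = 0.0173).

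Checkpoint genes of the DNA damage response were divided, with 10 rises and 7 falls among 26. The ATR kinase gene atl-1 had 256 and 257 CPM in SIN, against 129.9 and 132 CPM in WT (1.96-fold higher, adjusted p = 0.00143) and the p53-like gene cep-1 176 and 159 CPM in SIN, against 98.4 and 94.8 CPM in WT (1.74-fold higher, adjusted p = 0.00299), whereas rad-51, the strand-exchange gene, had 158 and 134 CPM in SIN, against 116 and 116 CPM in WT and did not pass (adjusted p = 0.0518). With 1 library left out, the rises among spindle genes numbered 20, 21, 17 and 17, among kinetochore genes 4, 5, 3 and 3, among meiotic genes 10, 15, 4 and 4 and among checkpoint genes 4, 6, 2 and 2. The falls among cell cycle genes then numbered 3, 0, 0 and 1. With any single SIN or WT library left out, cls-2, spdl-1, chk-2, syp-4, cdk-1 and atl-1 still passed. Calls were lost for hcp-4 without SIN replicate 1, WT replicate 1 or WT replicate 2 (adjusted p up to 0.0576), mcm-4 without SIN replicate 2 or WT replicate 1 (adjusted p up to 0.0616), and cep-1 without WT replicate 1 or WT replicate 2 (adjusted p up to 0.0532). Leaving out any SIN or WT library ended the calls of tba-1, tbb-2, sun-1, pcn-1 and cyb-3 (adjusted p up to 0.216). tba-1, tbb-2 and pcn-1 did not pass with upper-quartile scaling (adjusted p up to 0.105).

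Genes of the small RNA pathways moved in both directions. Apart from csr-1 and its cofactors, 20 rose and 13 fell of 55, and of 22 P granule components 5 rose and 7 fell. With upper-quartile scaling the P granule counts turned to 6 rises and 4 falls. Among the genes that rose, nrde-2, which acts in heritable silencing in nuclei, had 1596 and 1717 CPM in SIN, against 194 and 196 CPM in WT, and N2 had 158 and 149.7 CPM (8.5-fold higher, adjusted p = 5.94e-05), mut-14, of the mutator branch that amplifies 22G RNAs, 152 and 153 CPM in SIN, against 42.3 and 39.9 CPM in WT (3.71-fold higher, adjusted p = 0.000169) and mut-15, of the same branch, 160.3 and 163 CPM in SIN, against 57.5 and 58.4 CPM in WT (2.79-fold higher, adjusted p = 0.000281). The PIWI gene prg-1, which overlaps D2030.12 on the other strand, had 803 and 885 CPM in SIN, against 379 and 378 CPM in WT (2.23-fold higher, adjusted p = 0.00123). All 4 lay clear of WT in both libraries. Among secondary Argonautes, hrde-1, which acts in nuclei, had 978 and 1026 CPM in SIN, against 794 and 727 CPM in WT (1.32-fold higher, adjusted p = 0.0333), but wago-1, of the cytoplasmic branch, 728 and 742 CPM in SIN, against 1031 and 1002 CPM in WT (1.38-fold lower, adjusted p = 0.0182). The CSR-1 cofactor gene ego-1 rose 2.09-fold (adjusted p = 0.000866), whereas drh-3 and ekl-1 had 182 and 169 CPM in SIN, against 152 and 148 CPM in WT, and for the second gene 131 and 112 CPM in SIN, against 127 and 132 CPM in WT, and neither passed (adjusted p = 0.0946 and 0.525).

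In P granules, the condensates of germ cells that hold these factors, the Vasa-like helicase genes glh-2 and glh-3 rose 2.03-fold and 1.77-fold (adjusted p = 0.0011 and 0.00283), and deps-1, needed for granule assembly, fell 1.7-fold to 188 and 173 CPM in SIN, against 311 and 303 CPM in WT (adjusted p = 0.00391). The scaffold gene pgl-1 had 583 and 608 CPM in SIN, against 514 and 519 CPM in WT and did not pass (adjusted p = 0.135). The 17 small RNA genes that rose with a 22G RNA score had a median of 397 and the 8 that fell 53.4. Leaving out 1 library gave 10, 11, 9 and 9 rises and 3, 2, 1 and 3 falls among the small RNA genes. The calls of nrde-2, mut-14, mut-15, prg-1, ego-1 and glh-2 held with any single SIN or WT library left out. No call was made for deps-1 without SIN replicate 2 or WT replicate 1 (adjusted p up to 0.0587), and glh-3 without WT replicate 1 (adjusted p = 0.0513). For hrde-1 and wago-1 leaving out any one of the SIN or WT libraries ended the call (adjusted p up to 0.279). wago-1 did not pass with upper-quartile scaling (adjusted p = 0.0543).

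Histone methylation genes rose more often than they fell, and the machinery of transcription, splicing and nuclear transport did the reverse with TMM. Of 50 histone methylation genes 15 rose (30%) and 7 fell (14%), against 12.1% and 13.3% of all genes. The H3K9 methyltransferase gene met-2 had 322 and 335 CPM in SIN, against 187 and 184 CPM in WT (1.77-fold higher, adjusted p = 0.00192) and set-2, which methylates H3K4, 282 and 299.7 CPM in SIN, against 133 and 135 CPM in WT (2.17-fold higher, adjusted p = 0.00123). set-9 had 308 and 327 CPM in SIN, against 105 and 101 CPM in WT (3.09-fold higher, adjusted p = 0.000169). Both SIN libraries were higher in each. Among 79 genes of RNA polymerase II, general factors and Mediator 9 rose and 20 fell, among 64 splicing factor genes 8 rose and 17 fell, and among 51 nuclear pore and transport genes 6 rose and 15 fell. Rises were 11.4%, 12.5% and 11.8% of these lists, near the share of all genes. Falls were 25.3%, 26.6% and 29.4%, near the 26.6% of all genes with a 22G RNA score. With upper-quartile scaling the falls numbered 13, 7 and 5, against 15, 10 and 10 rises, so for polymerase II, splicing and pore genes that balance turned with the scaling. cdc-73, of the elongation complex PAF1, had 47.3 and 43 CPM in SIN, against 84.1 and 81.8 CPM in WT (1.83-fold lower, adjusted p = 0.00531), and the SR protein gene rsp-6 145 and 128 CPM in SIN, against 217 and 217 CPM in WT (1.59-fold lower, adjusted p = 0.00584). The helicase gene of the U5 particle, snrp-200, with a 22G RNA score of 1932, rose against its group to 817 and 858 CPM in SIN, against 334 and 324 CPM in WT (2.54-fold higher, adjusted p = 0.00121). The lamin gene lmn-1 also rose, with 744 and 683 CPM in SIN, against 466 and 461 CPM in WT (1.54-fold higher, adjusted p = 0.00773), and the importin gene ima-2 fell, with 477 and 404 CPM in SIN, against 698 and 671 CPM in WT (1.55-fold lower, adjusted p = 0.0118). Of 31 histone genes, 1 rose and 2 fell. Methylation genes that rose numbered 8, 8, 7 and 8 with 1 library left out. met-2, set-2, set-9 and snrp-200 passed with any single SIN or WT library left out. The threshold was missed by cdc-73 without SIN replicate 2 or WT replicate 1 (adjusted p up to 0.0677), and rsp-6 without WT replicate 1 or WT replicate 2 (adjusted p up to 0.0731). lmn-1 and ima-2 did not pass once any SIN or WT library was left out (adjusted p up to 0.114).

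Genes of oocyte and maternal RNA regulation and of the eggshell moved in both directions. Of 37 regulators of oocyte and maternal RNA 11 rose and 9 fell; their median log2 fold change, -0.1, turned to 0.04 with upper-quartile scaling, with 2 falls. The sperm-fate genes fog-3 and fog-1 had 55.7 and 37.1 CPM in SIN, against 2.59 and 2.12 CPM in WT, and for the second gene 126 and 82.8 CPM in SIN, against 29.8 and 28 CPM in WT (19.6-fold and 3.6-fold higher, adjusted p = 0.000825 and 0.00296). The SIN libraries differed from each other in both genes, yet each was above WT. fbf-1, which keeps germline stem cells and may share reads with its near-copy fbf-2, had 125 and 137 CPM in SIN, against 21.4 and 20.5 CPM in WT (6.23-fold higher, adjusted p = 0.000142). The early embryo regulator pos-1 had 694 and 633 CPM in SIN, against 997 and 961 CPM in WT (1.48-fold lower, adjusted p = 0.0155), and mex-5, which sets embryonic polarity, 849 and 874 CPM in SIN, against 1067 and 1068 CPM in WT, short of the threshold (adjusted p = 0.0621). Among genes of the eggshell and of egg activation, 5 rose and 8 fell of 20; with upper-quartile scaling that balance turned to 5 rises and 3 falls. cbd-1, of the outer eggshell, had 1508 and 1570 CPM in SIN, against 2798 and 2711 CPM in WT (1.79-fold lower, adjusted p = 0.00756) and the chitin synthase gene chs-1, which overlaps T25G3.3 on the same strand, 371 and 356 CPM in SIN, against 607 and 609 CPM in WT (1.67-fold lower, adjusted p = 0.00474), while the shell proteoglycan gene cpg-2 had 2568 and 2191 CPM in SIN, against 2960 and 2778 CPM in WT and did not pass (adjusted p = 0.207). The 6 oocyte markers summed to 3582 and 3358 TPM in SIN, against 4252 and 3982 TPM in WT, and 5 of 6 fell; the part of oocyte number in these falls was not tested. With any single SIN or WT library left out, fog-3, fog-1 and fbf-1 still passed. Leaving out any SIN or WT library ended the calls of pos-1, cbd-1 and chs-1 (adjusted p up to 0.142). Leaving out 1 library gave 5, 5, 4 and 4 rises among the regulators and 1, 0, 0 and 0 falls among the eggshell genes.

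Sperm genes rose more often than they fell, and their levels also differed between libraries of a strain. Of 29 sperm genes other than major sperm protein genes 10 rose (34.5%) and 1 fell (3.45%), with a median log2 fold change of 1.43. Over all genes 12.1% rose and 13.3% fell. Median WT level in this list was 0.763 CPM, and the limit that the filter sets on rises among rare genes applies. Among the least abundant of the 5 sets by mean TPM, 15.8% of genes rose and 0.714% fell. How far the sperm gene rises exceed that limit was not tested. The mean log2 level of the sperm genes, relative to the mean of the 4 SIN and WT libraries, was 0.49 and 0.78 in SIN, against -0.97 and -0.3 in WT and -0.96 and -0.7 in N2. Both SIN libraries were high, but WT replicate 2 lay between WT replicate 1 and SIN. The myosin gene spe-15, which overlaps gst-25 on the other strand, had 56.7 and 48 CPM in SIN, against 14.3 and 17.2 CPM in WT (3.33-fold higher, adjusted p = 0.00219), and the kinase gene spe-6 22 and 20.9 CPM in SIN, against 9.29 and 10.3 CPM in WT (2.19-fold higher, adjusted p = 0.00674). Among 33 tested genes of the major sperm protein, copies so alike that their reads may be divided between them, 0 rose and 0 fell by edgeR, 1 had an unadjusted p under 0.05, and DESeq2 called 1 higher and 0 lower. Their relative levels were -0.13 and 1.19 in SIN, against -1.9 and 0.85 in WT and -2.23 and -0.43 in N2, so that libraries of 1 strain differed more than the strains. Sperm markers summed to 11.6 and 26.9 TPM in SIN, against 1.14 and 10.9 TPM in WT, and 2 of 6 rose. Sperm genes that rose numbered 1, 1, 1 and 1 with 1 library left out, and the list's median ran from 1.06 to 2.01. The call of spe-15 held with any single SIN or WT library left out. For spe-6 leaving out any one of the SIN or WT libraries ended the call (adjusted p up to 0.0974).

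Transcripts of the translation machinery were lower in SIN, by moderate amounts and nearly throughout. Of 83 cytosolic ribosomal protein genes, 82 had both SIN libraries below both WT libraries (35% of all genes did), and 27 fell past the threshold while 0 rose; the median log2 fold change was -0.64. Together they made up 12.8% and 14.1% of TPM in SIN, against 18.2% and 18.5% in WT and 15% and 19.7% in N2. SIN was below WT in both libraries, and the N2 libraries differed more from each other than the WT libraries did. The stalk protein gene rla-0 had 1427 and 1579 CPM in SIN, against 2509 and 2606 CPM in WT (1.7-fold lower, adjusted p = 0.0183), and rpl-12 836 and 967 CPM in SIN, against 1620 and 1643 CPM in WT (1.81-fold lower, adjusted p = 0.0216). The small subunit gene rps-7 had 1263 and 1409 CPM in SIN, against 2049 and 2121 CPM in WT and did not pass (adjusted p = 0.0702), with 1448 and 2275 CPM in N2.

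Of 71 mitochondrial ribosomal protein genes 0 rose and 37 fell (median -0.51), of 52 translation factor genes 1 rose and 26 fell (median -0.4), and of 33 tRNA synthetase genes 3 rose and 18 fell (median -0.37). Mitochondrial ribosomal protein genes made up 0.592% and 0.575% of TPM in SIN, against 0.675% and 0.695% in WT and 0.549% and 0.593% in N2. In relative log2 level N2 had -0.27 and 0.06 there, against -0.22 and -0.25 in SIN and 0.21 and 0.27 in WT. Translation factor genes made up 1.88% and 1.95% in SIN, 2.5% and 2.45% in WT and 2.49% and 2.48% in N2, near WT. Synthetase genes made up 0.347% and 0.35% in SIN, 0.362% and 0.365% in WT and 0.353% and 0.351% in N2. The initiation factor genes eif-3.B and eif-3.K had 224 and 244 CPM in SIN, against 370 and 372 CPM in WT, and for the second gene 67.5 and 64.6 CPM in SIN, against 129.5 and 132 CPM in WT (1.59-fold and 1.98-fold lower, adjusted p = 0.00573 and 0.00319), and the elongation factor gene eef-2, which moves the ribosome along, 3330 and 3688 CPM in SIN, against 5132 and 5042 CPM in WT (1.45-fold lower, adjusted p = 0.0303). mrpl-39, of the mitochondrial large subunit, had 22.9 and 22.2 CPM in SIN, against 47.3 and 45.9 CPM in WT (2.07-fold lower, adjusted p = 0.00257). Some genes of these lists rose. gcn-2, whose kinase restrains initiation under amino acid shortage and which overlaps Y81G3A.4 on the same strand, has a score of 738 and had 121 and 121.8 CPM in SIN, against 64.5 and 65.7 CPM in WT (1.86-fold higher, adjusted p = 0.00209), and the alanyl-tRNA synthetase gene aars-2, with a score of 851, had 789.6 and 811 CPM in SIN, against 543 and 545 CPM in WT (1.47-fold higher, adjusted p = 0.00911); the 3 synthetase genes that rose had a median score of 125. Genes that build ribosomes went the other way, with 13 rises and 1 fall among 42. rpoa-2, a subunit of RNA polymerase I, had 226 and 234 CPM in SIN, against 75.8 and 75.5 CPM in WT (3.04-fold higher, adjusted p = 0.000174), whereas the nucleolar fibrillarin gene fib-1 had 540.3 and 583 CPM in SIN, against 577 and 642 CPM in WT and did not pass (adjusted p = 0.623). Median scores were 182 for 39 ribosome biogenesis genes and 42.9 for the 46 ribosomal protein genes that have one.

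The number of falls depended on the fit. For cytosolic ribosomal protein genes the falls numbered 4 with upper-quartile scaling, 79 with the 4 SIN and WT libraries alone and 0, 0, 0 and 0 with 1 library left out; the list's median stayed between -0.72 and -0.57 in the last 4. For mitochondrial ribosomal protein genes they numbered 23, 57 and 2, 2, 0 and 1, for translation factors 16, 37 and 3, 2, 1 and 2, and for synthetases 11, 21 and 2, 1, 0 and 0. Rises of ribosome biogenesis genes numbered 3, 4, 2 and 2 with 1 library left out. gcn-2 and rpoa-2 passed with any single SIN or WT library left out. The threshold was missed by eif-3.B without SIN replicate 1, WT replicate 1 or WT replicate 2 (adjusted p up to 0.0765), eif-3.K without SIN replicate 2 (adjusted p = 0.0529), and mrpl-39 without WT replicate 1 (adjusted p = 0.0501). rla-0, rpl-12, eef-2 and aars-2 did not pass once any SIN or WT library was left out (adjusted p up to 0.226). eef-2 did not pass with upper-quartile scaling (adjusted p = 0.0944).

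**Figure D3:**
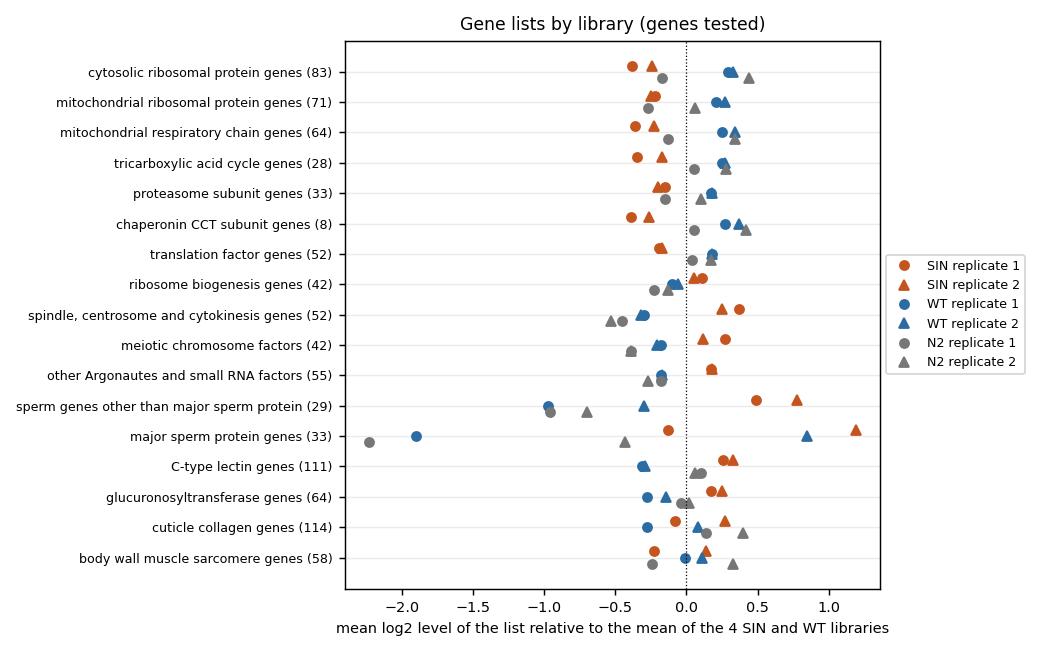
Mean log2 level of the tested genes of 17 lists in each library, relative to the mean of the 4 SIN and WT libraries (0.1 CPM added before the logarithm); circles are replicate 1 and triangles replicate 2. Both SIN points of the ribosomal protein genes lie left of both WT points, at -0.38 and -0.24 against 0.29 and 0.33, the spindle genes show the reverse, and the major sperm protein genes spread within each strain.

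Genes of protein folding and breakdown fell more often than they rose. All 8 tested subunits of CCT, the ring that folds actin and tubulin, fell (median log2 fold change -0.67), for example cct-2 with 378 and 415 CPM in SIN, against 649 and 695 CPM in WT (1.69-fold lower, adjusted p = 0.0161) and cct-8 with 246 and 271 CPM in SIN, against 406 and 430.1 CPM in WT (1.62-fold lower, adjusted p = 0.00803). The CCT genes made up 0.23% and 0.251% of TPM in SIN, 0.323% and 0.341% in WT and 0.308% and 0.344% in N2, near WT. Of 33 proteasome subunit genes 0 rose and 18 fell (median -0.42). Proteasome genes made up 1.2% and 1.15% of TPM in SIN, 1.3% and 1.3% in WT and 1.18% and 1.22% in N2, near SIN. The lid gene rpn-5 had 283 and 284 CPM in SIN, against 410 and 410.3 CPM in WT (1.45-fold lower, adjusted p = 0.0117), while rpn-11, the lid's deubiquitinase gene, had 379 and 367 CPM in SIN, against 351 and 353 CPM in WT and did not pass (adjusted p = 0.561). Of 35 HSP70, HSP90 and mitochondrial chaperone genes 3 rose and 10 fell. The endoplasmic reticulum chaperone gene hsp-3 had 531 and 635 CPM in SIN, against 1002 and 1098 CPM in WT (1.8-fold lower, adjusted p = 0.00724), and sti-1, an HSP90 partner, 165 and 178 CPM in SIN, against 296 and 350.2 CPM in WT (1.89-fold lower, adjusted p = 0.00818). hsp-4, whose transcript marks stress of the endoplasmic reticulum, had 701 and 874 CPM in SIN, against 1165 and 1781 CPM in WT, with no call (adjusted p = 0.144) and libraries of each strain apart. SKP1-related genes, of ubiquitin ligases, had 0 rises and 3 falls among 20. Of 21 subunit genes of the vacuolar proton pump, 1 rose and 8 fell (median -0.51). Pump genes made up 0.437% and 0.474% of TPM in SIN, 0.542% and 0.547% in WT and 0.469% and 0.535% in N2, whose libraries differed. The exception was unc-32, the pump's membrane subunit a, with 387 and 376 CPM in SIN, against 221 and 225 CPM in WT and a 22G RNA score of 294 (1.71-fold higher, adjusted p = 0.0041).

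With upper-quartile scaling 2 chaperonin and 6 proteasome genes fell. With 1 library left out the falls numbered 0, 0, 0 and 0 for chaperonin and 0, 0, 0 and 0 for proteasome genes, and the medians stayed between -0.74 and -0.6, and between -0.44 and -0.38. Calls were lost for sti-1 without SIN replicate 1, SIN replicate 2 or WT replicate 2 (adjusted p up to 0.0808), hsp-3 without SIN replicate 1, WT replicate 1 or WT replicate 2 (adjusted p up to 0.0663), and unc-32 without WT replicate 1 or WT replicate 2 (adjusted p up to 0.071). Leaving out any SIN or WT library ended the calls of cct-2, cct-8 and rpn-5 (adjusted p up to 0.128).

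Genes of energy metabolism in mitochondria fell in SIN. Of 64 respiratory chain genes 0 rose and 41 fell (median log2 fold change -0.63), and 63 had both SIN libraries below both WT libraries. Of 28 tricarboxylic acid cycle genes 0 rose and 22 fell (median -0.56), the highest share of falls among the lists with at least 20 tested genes. The ATP synthase gene atp-2 had 1320 and 1484 CPM in SIN, against 2473 and 2466 CPM in WT (1.76-fold lower, adjusted p = 0.0102), and ucr-2.3, of the cytochrome bc1 complex, 118.7 and 125 CPM in SIN, against 213 and 223 CPM in WT (1.79-fold lower, adjusted p = 0.00693). cyc-2.1, the cytochrome c gene, had 337 and 372 CPM in SIN, against 537 and 557 CPM in WT and did not pass (adjusted p = 0.0823). For the cycle, the citrate synthase gene cts-1 had 525 and 589.9 CPM in SIN, against 918 and 978 CPM in WT (1.7-fold lower, adjusted p = 0.00911) and dld-1, a subunit shared by the cycle's dehydrogenases, 166 and 188 CPM in SIN, against 303 and 302 CPM in WT (1.71-fold lower, adjusted p = 0.00596). No WT library fell below a SIN library in atp-2, ucr-2.3, cts-1 or dld-1. Glycolysis showed fewer calls: of 26 genes 3 rose (11.5%) and 5 fell (19.2%), against 12.1% and 13.3% of all genes. The pyruvate kinase gene pyk-1 had 352 and 379.5 CPM in SIN, against 517 and 496 CPM in WT (1.39-fold lower, adjusted p = 0.0234), and the enolase gene enol-1 had 1128 and 1110 CPM in SIN, against 1025 and 989 CPM in WT (adjusted p = 0.43).

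In lipid metabolism 6 of 22 desaturase and elongase genes rose (27.3%) and 3 fell (13.6%), and of 60 fatty acid oxidation and lipase genes 8 rose (13.3%) and 5 fell (8.33%). Over all genes 12.1% rose and 13.3% fell. The desaturase and elongase falls and the oxidation and lipase rises were near those shares. The desaturase gene fat-5, which overlaps twk-42 on the other strand, had 60.9 and 48.8 CPM in SIN, against 11.2 and 11.2 CPM in WT, and N2 had 41.6 and 66.7 CPM (4.88-fold higher, adjusted p = 0.00347). WT was the low strain there, with SIN between the N2 libraries. cpt-3, a carnitine palmitoyltransferase gene, had 11.9 and 7.98 CPM in SIN, against 0.807 and 0.43 CPM in WT (15.8-fold higher, adjusted p = 0.00188), and acdh-1, of branched-chain breakdown, 373 and 615 CPM in SIN, against 1091 and 963 CPM in WT (2.08-fold lower, adjusted p = 0.0479). Of 33 nucleotide and one-carbon genes 5 rose (15.2%) and 13 fell (39.4%). sams-3, an S-adenosylmethionine synthetase gene with near-copies, had 28.3 and 28.2 CPM in SIN, against 63.6 and 58.3 CPM in WT (2.16-fold lower, adjusted p = 0.00173), and dut-1, which keeps uracil out of DNA, 258 and 237 CPM in SIN, against 452 and 416 CPM in WT (1.75-fold lower, adjusted p = 0.00575). With upper-quartile scaling 18 respiratory chain, 11 cycle and 9 nucleotide and one-carbon genes fell. With 1 library left out, 0, 1, 1 and 0 respiratory chain, 1, 4, 0 and 0 cycle and 2, 1, 1 and 4 nucleotide and one-carbon genes did. The calls of fat-5, cpt-3 and sams-3 held with any single SIN or WT library left out. No call was made for dut-1 without SIN replicate 1, SIN replicate 2 or WT replicate 1 (adjusted p up to 0.0728), and dld-1 without SIN replicate 1, WT replicate 1 or WT replicate 2 (adjusted p up to 0.0694). For atp-2, ucr-2.3, cts-1, pyk-1 and acdh-1 leaving out any one of the SIN or WT libraries ended the call (adjusted p up to 0.212). pyk-1 and acdh-1 did not pass with upper-quartile scaling (adjusted p up to 0.0822).

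**Figure D4:**
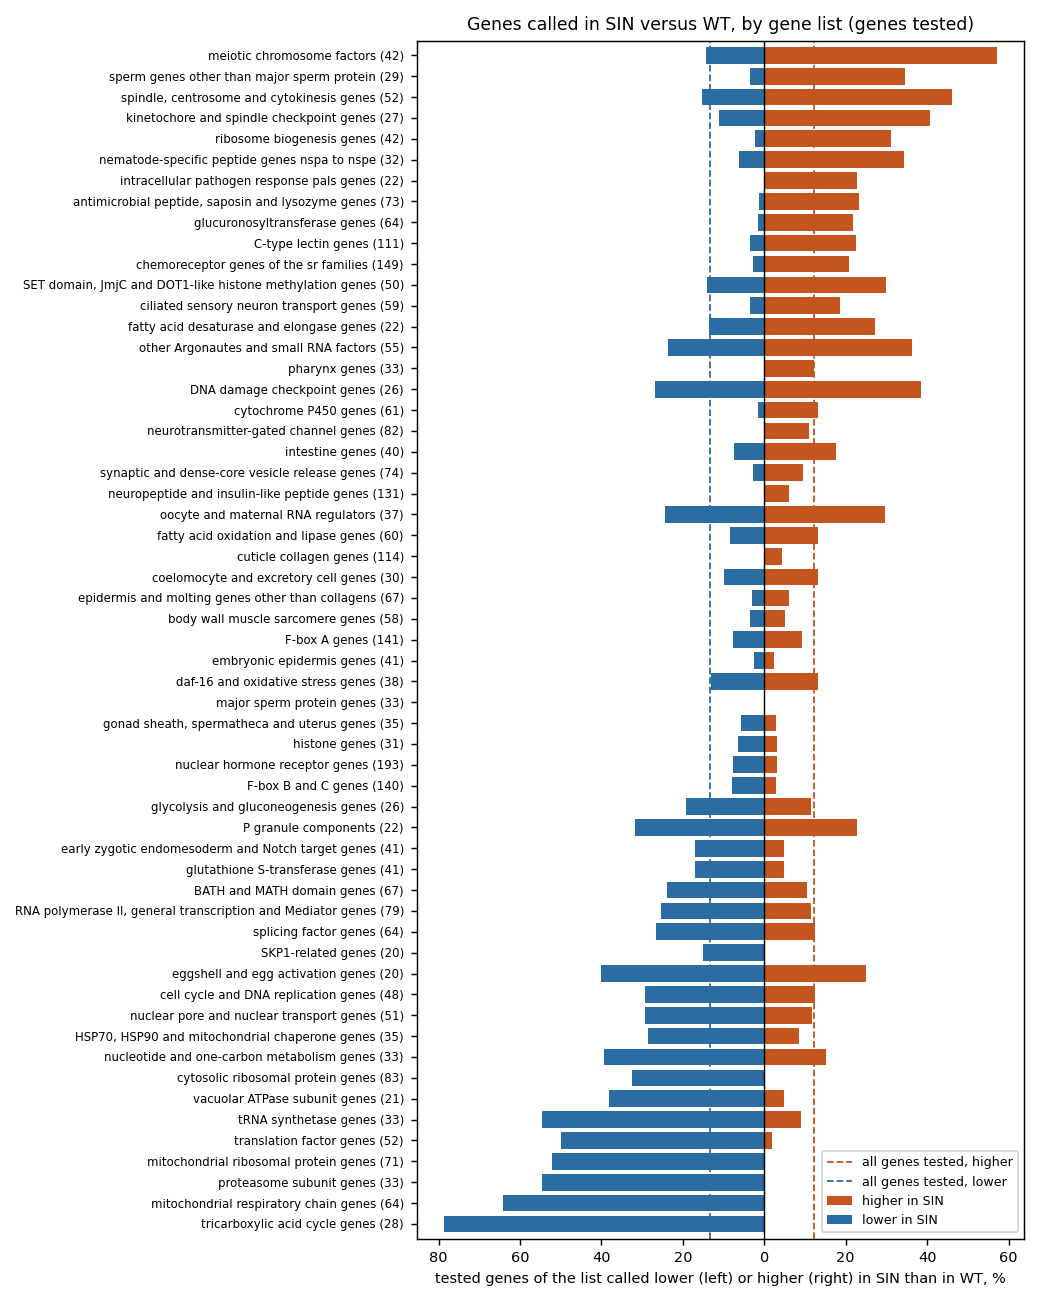
Percent of the tested genes of each list with at least 20 tested genes (number in parentheses) called lower (left) or higher (right) in SIN than in WT; dashed lines give the shares over all genes tested, 13.3% and 12.1%. Lists are ordered by the percent higher minus the percent lower. Lists of rare genes, the sperm genes among them, carry the limit that the filter sets on rises. Meiotic, sperm and spindle genes stand at the top, and mitochondrial, proteasome and translation genes at the bottom with 78.6% of cycle genes and 64.1% of respiratory chain genes lower.

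Defence genes rose more often than they fell, and 3 of the tested C-type lectin genes and 0 of the antimicrobial genes have a 22G RNA score. Of 266 C-type lectin genes, many of which answer infection, 111 were tested, and 25 rose and 4 fell. clec-63 had 427 and 403 CPM in SIN, against 278 and 272 CPM in WT, and N2 had 384 and 439 CPM (1.51-fold higher, adjusted p = 0.0106) and clec-146 42.7 and 32.1 CPM in SIN, against 8.29 and 7.79 CPM in WT, and N2 had 21.9 and 15.3 CPM (4.65-fold higher, adjusted p = 0.00258). In both genes WT was the lowest strain, with N2 between WT and SIN for clec-146 and near SIN for clec-63. Of 73 tested antimicrobial peptide, saposin and lysozyme genes 17 rose and 1 fell. The caenacin gene cnc-2, an antimicrobial peptide of the epidermis, had 40.6 and 25.5 CPM in SIN, against 4.18 and 3.31 CPM in WT, and N2 had 8.28 and 4.08 CPM (8.81-fold higher, adjusted p = 0.00674), and the lysozyme gene lys-8 235 and 198 CPM in SIN, against 137 and 128 CPM in WT, and N2 had 148 and 149 CPM (1.63-fold higher, adjusted p = 0.00716). The saposin-like gene spp-18 fell, with 3.85 and 3.63 CPM in SIN, against 12.9 and 12.6 CPM in WT (3.41-fold lower, adjusted p = 0.00188). lys-7 varied widely between the N2 libraries, with 520.3 and 407 CPM in SIN, against 231 and 212 CPM in WT, and N2 had 435 and 118 CPM and no call (adjusted p = 0.226). Of 22 tested pals genes, which answer microsporidia and viruses, 5 rose and 0 fell, and of 16 irg and dod genes 4 rose and 1 fell. Rises were 22.5%, 23.3%, 22.7% and 25% of the lectin, antimicrobial, pals, and irg and dod genes, against 12.1% of all genes. Falls were 3.6%, 1.37%, 0% and 6.25%, against 13.3%. The median WT levels were 1.41, 4.27, 0.312 and 11.4 CPM. In the least abundant of the 5 sets by mean TPM, 15.8% of genes rose and 0.714% fell.

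Detoxification enzymes were divided by family. Of 64 glucuronosyltransferase genes 14 rose and 1 fell, and of 61 cytochrome P450 genes 8 rose and 1 fell, whereas of 41 glutathione S-transferase genes 2 rose and 7 fell. Rises were 21.9%, 13.1% and 4.88% in that order, against 12.1% of all genes, so P450 rises were near that share. Falls were 1.56%, 1.64% and 17.1%, against 13.3%. ugt-41 had 38.9 and 30.3 CPM in SIN, against 9.61 and 10.5 CPM in WT, and N2 had 21.7 and 27.2 CPM (3.44-fold higher, adjusted p = 0.00267) and ugt-25 20 and 16.1 CPM in SIN, against 5.4 and 6.23 CPM in WT, and N2 had 13.1 and 14.3 CPM (3.1-fold higher, adjusted p = 0.00347); in both, N2 lay between WT and SIN. gst-7 had 78 and 82.9 CPM in SIN, against 186 and 181 CPM in WT, and N2 had 180.1 and 193 CPM (2.28-fold lower, adjusted p = 0.000625), with WT and N2 alike and SIN low. Of 38 daf-16 and oxidative stress genes 5 rose and 5 fell, 13.2% each way and near the shares of all genes. The thioredoxin reductase genes trxr-1 and trxr-2 fell 1.29-fold and 2.05-fold (adjusted p = 0.0158 and 0.00909). Low-level members passed the filter where 1 strain was high, so these counts do not stand for whole families. Leaving out 1 library gave 1, 2, 1 and 6 rises among lectin, 2, 3, 0 and 1 among antimicrobial and 3, 2, 1 and 2 among glucuronosyltransferase genes, 0, 0, 0 and 0 among cytochrome P450 and 0, 1, 0 and 0 among pals genes, and 0, 0, 0 and 0 among irg and dod genes. Falls of glutathione S-transferase genes then numbered 2, 2, 2 and 2. clec-146, spp-18, ugt-41 and gst-7 passed with any single SIN or WT library left out. The threshold was missed by cnc-2 without SIN replicate 1, WT replicate 1 or WT replicate 2 (adjusted p up to 0.069), ugt-25 without WT replicate 1 (adjusted p = 0.0582), and lys-8 without WT replicate 1 or WT replicate 2 (adjusted p up to 0.0766). clec-63, trxr-1 and trxr-2 did not pass once any SIN or WT library was left out (adjusted p up to 0.152). trxr-1 did not pass with upper-quartile scaling (adjusted p = 0.0505).

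Among large nematode gene families, F-box A genes, adaptors of ubiquitin ligases, had 13 rises and 11 falls of 141 tested, F-box B and C genes 4 and 11 of 140, and BATH and MATH domain genes 7 and 16 of 67. Nematode-specific peptide genes rose in 11 of 32 and fell in 2; nspc-16 had 3.97 and 3.82 CPM in SIN, against 0.318 and 0.338 CPM in WT, and N2 had 2.42 and 2.7 CPM (11.8-fold higher, adjusted p = 0.00114), and nspc-18 7.19 and 6.28 CPM in SIN, against 1.61 and 1.5 CPM in WT, and N2 had 5.6 and 6.11 CPM (4.31-fold higher, adjusted p = 0.00257). N2 sat near SIN in both, and WT was the strain apart. fbxc-32 fell, with 6.86 and 4.88 CPM in SIN, against 26.8 and 23.7 CPM in WT, and N2 had 26.1 and 20 CPM (4.29-fold lower, adjusted p = 0.00283), and there SIN stood apart from both. By share, 9.22% of F-box A, 2.86% of F-box B and C, 10.4% of BATH and MATH and 34.4% of peptide genes rose. In the same order 7.8%, 7.86%, 23.9% and 6.25% fell. Over all genes 12.1% rose and 13.3% fell, so both F-box lists lay under both shares. The peptide genes had a median WT level of 1.07 CPM, and the limit that the filter sets on rises among rare genes applies. Members of these families are alike in sequence and may share reads. With any single SIN or WT library left out, nspc-16, nspc-18 and fbxc-32 still passed.

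Most structural genes of the soma were not called. Of 58 body wall muscle genes 3 rose and 2 fell, of 114 tested cuticle collagen genes 5 rose and 0 fell, and of 67 other epidermis and molting genes 4 rose and 2 fell, all under the shares of 12.1% and 13.3% over all genes. In muscle, unc-27, which encodes troponin I, had 280 and 408 CPM in SIN, against 419 and 440.1 CPM in WT, and N2 had 172 and 499.9 CPM (adjusted p = 0.666), with libraries of 1 strain further apart than the strains. Actin gene act-2, also active outside muscle and with near-copies, had 685 and 735 CPM in SIN, against 1279 and 1321 CPM in WT (1.83-fold lower, adjusted p = 0.00813). col-119 had 1147 and 2082 CPM in SIN, against 1878 and 2067 CPM in WT, and N2 had 764 and 2527 CPM (adjusted p = 0.749), low in replicate 1 of SIN and of N2. Epidermal markers summed to 511 and 1171 TPM in SIN, against 1176 and 1697 TPM in WT, and muscle markers to 792 and 1209 TPM in SIN, against 1043 and 1130 TPM in WT; no tested marker of either passed by edgeR or DESeq2, and none had an unadjusted p under 0.05. The nuclear receptor gene nhr-23, a regulator of molting with a 22G RNA score of 280, had 121.8 and 118 CPM in SIN, against 67.5 and 69.6 CPM in WT (1.75-fold higher, adjusted p = 0.00237). Of 193 nuclear hormone receptor genes 6 rose (3.11%) and 15 fell (7.77%), both under the shares of all genes. No call was made for nhr-23 without WT replicate 1 (adjusted p = 0.0513). For act-2 leaving out any one of the SIN or WT libraries ended the call (adjusted p up to 0.0829).

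In the intestine, the yolk protein genes vit-1 to vit-6 gave 0 rises and 0 falls among 6 by edgeR, with 1 at an unadjusted p under 0.05, and 1 and 0 by DESeq2. The most abundant, vit-6, had 14982 and 19636 CPM in SIN, against 15703 and 15266 CPM in WT, and N2 had 18739 and 16446 CPM (adjusted p = 0.562), and vit-2 14084 and 17348 CPM in SIN, against 12685 and 12270 CPM in WT, and N2 had 16513 and 14189 CPM (adjusted p = 0.202). Among 40 intestine genes 7 rose (17.5%) and 3 fell (7.5%), against 12.1% and 13.3% of all genes. The aspartic protease gene asp-4 had 554 and 589 CPM in SIN, against 332 and 301 CPM in WT (1.8-fold higher, adjusted p = 0.00367), and the cysteine protease genes moved apart, cpr-6 with 1070 and 1151 CPM in SIN, against 862 and 782 CPM in WT (1.35-fold higher, adjusted p = 0.0296) and cpr-5 with 94.1 and 89.6 CPM in SIN, against 143 and 139 CPM in WT (1.54-fold lower, adjusted p = 0.0151). Intestinal markers summed to 12342 and 15138 TPM in SIN, against 10156 and 9706 TPM in WT and 14745 and 10549 TPM in N2. Of 8 markers 1 rose and 0 fell by edgeR, with 4 at an unadjusted p under 0.05 and 3 called by DESeq2. Of 33 pharynx genes 4 rose (12.1%, the share of all genes) and 0 fell, and of 35 gonad sheath, spermatheca and uterus genes 1 rose (2.86%) and 2 fell (5.71%, against 13.3% of all genes). The innexin gene inx-14, which couples germ cells to the sheath, had 126 and 121 CPM in SIN, against 219 and 203 CPM in WT (1.71-fold lower, adjusted p = 0.00257). It has a 22G RNA score of 45, and its fall does not stand for the sheath. The 4 gonad sheath markers gave 0 rises and 0 falls by edgeR (median log2 fold change 0.07). Of these, 1 had an unadjusted p under 0.05 and 1 was called by DESeq2. inx-14 passed with any single SIN or WT library left out. The threshold was missed by asp-4 without WT replicate 2 (adjusted p = 0.0614). cpr-6 and cpr-5 did not pass once any SIN or WT library was left out (adjusted p up to 0.254).

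Among neuronal genes, more were called higher than lower in each list, which also held among the rarest genes of all kinds. Of 74 synaptic and dense-core vesicle genes 7 rose and 2 fell, of 131 neuropeptide genes 8 rose and 0 fell, of 82 neurotransmitter-gated channel genes 9 rose and 0 fell, and of 59 genes of cilium transport 11 rose and 2 fell. Rises were 9.46%, 6.11%, 11% and 18.6% of these lists in the same order, against 12.1% of all genes. Falls were 2.7%, 0%, 0% and 3.39%, against 13.3%. The median WT levels were 8.16, 2.13, 0.721 and 0.548 CPM. In the least abundant of the 5 sets by mean TPM, 15.8% of genes rose and 0.714% fell. Neuronal markers summed to 513 and 500 TPM in SIN, against 480 and 491 TPM in WT, and 0 of 8 rose by edgeR, with 1 at an unadjusted p under 0.05 and 0 called by DESeq2. The called genes include unc-31, which primes dense-core vesicles for release, had 29.6 and 24.3 CPM in SIN, against 3.18 and 2.7 CPM in WT, and N2 had 4 and 3.29 CPM (9.14-fold higher, adjusted p = 0.000538), and the glutamate receptor gene glr-2 17.6 and 17.6 CPM in SIN, against 1.61 and 1.26 CPM in WT, and N2 had 1.25 and 1.76 CPM (12.2-fold higher, adjusted p = 0.000723). Both WT and N2 libraries were low in these genes. The vesicle gene snb-1, abundant in all neurons, had 185 and 169.8 CPM in SIN, against 202 and 209.6 CPM in WT and did not pass (adjusted p = 0.103). The glutamate-gated chloride channel gene avr-15 had 8.36 and 9.54 CPM in SIN, against 1.17 and 1.53 CPM in WT, and N2 had 5.51 and 9.62 CPM (6.62-fold higher, adjusted p = 0.00452), with WT below both other strains. Of 1636 chemoreceptor genes 149 passed the filter, and 31 rose (20.8%) and 4 fell of those; a chemoreceptor gene that passed through its SIN level had to be higher there. With any single SIN or WT library left out, unc-31 and glr-2 still passed. Calls were lost for avr-15 without SIN replicate 2 or WT replicate 1 (adjusted p up to 0.0564). With 1 library left out, 1, 3, 1 and 2 synaptic, 0, 0, 0 and 0 neuropeptide, 2, 1, 1 and 2 channel, 0, 0, 0 and 0 cilium and 0, 1, 1 and 1 chemoreceptor genes rose.

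The embryos inside the gravid adults also gave transcripts. Of 41 early zygotic genes 2 rose (4.88%) and 7 fell (17.1%, median log2 fold change -0.36), and of 41 embryonic epidermis genes 1 rose and 1 fell (2.44% each). Over all genes 12.1% rose and 13.3% fell, so the early zygotic falls were near that share and the other counts under it. The gene pal-1, a maternal regulator of the posterior lineages, had 141 and 129 CPM in SIN, against 178 and 169 CPM in WT (1.28-fold lower, adjusted p = 0.0278). The cadherin gene cdh-3 had 2.15 and 2.01 CPM in SIN, against 6.36 and 6.11 CPM in WT, and N2 had 14.9 and 7.77 CPM (2.99-fold lower, adjusted p = 0.0192). Early embryo markers summed to 6.88 and 6.38 TPM in SIN, against 10.7 and 10.6 TPM in WT and 30.6 and 11.7 TPM in N2, lowest in both SIN libraries, and none of 6 tested passed by edgeR, with 2 at an unadjusted p under 0.05 and 1 called by DESeq2. How many embryos each adult held was not recorded in the sources used here, and its part in these values was not tested. For pal-1 and cdh-3 leaving out any one of the SIN or WT libraries ended the call (adjusted p up to 0.222). pal-1 did not pass with upper-quartile scaling (adjusted p = 0.0729).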

How the data were processed

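RNA of SIN, WT and N2 worms was sequenced, 2 libraries each. The authors deposited a single table of raw read counts per gene with gene lengths; STAR, HTSeq, DESeq and DESeq2 and the build WBcel235 are named in the submitters' processing notes, without versions or roles. The 22G RNA score in that table was taken by the authors from a study by Claycomb, with a scaling not given in the sources used here, and the RPM values of 22G RNA in a CSR-1 immunoprecipitate from one by Conine, per the file headers. The germline classes came from SAGE (Wang) and array (Reinke) studies, per the file headers.

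Counts were tested with edgeR 4.0.16 (limma 3.58.1, R 4.3.3): genes passed filterByExpr (minimum count 10, minimum total 15), libraries were scaled with TMM, a quasi-likelihood model with robust dispersions was fitted to all 6 libraries with 3 strain means, and p-values of SIN over WT were adjusted by Benjamini-Hochberg over the 15404 genes tested, with 0.05 as threshold. The fit had 3 residual degrees of freedom. The filter removed at most 0.0476% of the counts of a library. The script was tested on simulated counts. Fold changes are SIN over WT, and the authors' own fold changes and p-values were not used. Sums over list members and TPM used tested genes. The comparison, the gene lists and the markers were chosen with earlier results of these data known, so counts over lists describe the lists and carry no test of their own. Named genes were csr-1 and klp-7, the 10 largest gains and 10 largest losses in mean TPM among called genes whose SIN and WT libraries did not overlap in CPM, up to 4 called genes with the smallest p and up to 4 with the highest TPM in each list, and up to 3 called genes with the smallest p in each deposited class; the text gives those that show how each group moved. Of the genes named, asp-4, avr-15, col-119, cts-1, daf-21, deps-1, dut-1, eef-1A.1, eif-3.K, fat-5, fbf-1, hcp-3, inx-14, lys-8, mcm-4, mrpl-39, pal-1, perm-2, prg-1, rpn-11, sams-3, spe-15, trxr-2, ttr-51, ucr-2.3, ugt-25 and vit-2 overlap a gene on the other strand. Symbols now in use came from the reference annotation of WBcel235. Alternatives were RLE and upper-quartile scaling, no filter, DESeq2 1.42.0, the 4 SIN and WT libraries alone, a replicate block, leaving out each library, and a test against a 1.5-fold change.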

Additional observations from a re-analysis of the deposited data

How the results depend on the processing

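No gene called in SIN over WT was called in the opposite direction under any alternative. RLE scaling gave 1852 rises and 1961 falls, DESeq2 1930 and 2453, and no filter on low counts 2736 and 3031. The 4 SIN and WT libraries alone gave 3206 rises and 3315 falls, upper-quartile scaling 1227 falls, and a test for changes beyond 1.5-fold, a stricter question, 480 rises and 155 falls; apart from the last, the cause was not tested. Leaving out 1 library gave between 252 and 3244 rises and between 89 and 3375 falls, the high ends without an N2 library. Of the 138 genes named, 133 kept their side of the threshold with DESeq2, 120 with upper-quartile scaling, and 87, 87, 76 and 83 without SIN replicates 1 and 2 and WT replicates 1 and 2. Of 61 list medians, 5 changed sign with upper-quartile scaling. With 2 libraries a strain, the fit has few degrees of freedom, and the adjusted p of the ribosomal protein genes named as falls lay between 0.0183 and 0.0498.

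The labels give the libraries replicate numbers but no litter, batch or day behind them. With a replicate block 2409 genes rose and 2489 fell. Cytosolic ribosomal protein genes then had 69 falls, 18 chaperone genes and 14 vacuolar pump genes fell, and germline-enriched genes had 736 rises and 682 falls. Of the genes named, rps-7, hsp-4, cyc-2.1 and rad-51 passed under the block by edgeR (adjusted p = 0.0256, 0.0146, 0.0291 and 0.047), and no other named gene changed its call. Deviations of same-numbered libraries from their strain means correlated across genes with r = 0.344 for SIN and WT, 0.377 for SIN and N2 and 0.236 for WT and N2; with 2 libraries a strain this is a hint from the data, not from the design, and the numbers were not taken to pair the libraries.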

Other observations

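The X chromosome, which is largely silent in germ cells, held fewer calls for its number of genes than the genome as a whole. Of 2128 tested genes on X 129 rose (6.06%) and 193 fell (9.07%), against 12.1% and 13.3% of all genes. Genes with a 22G RNA score numbered 62 on X, and of these 2 rose and 10 fell; on chromosome I they numbered 1000, of which 151 rose and 239 fell. Among genes in no deposited class, 111 of 1684 on X rose (6.59%) and 84 fell (4.99%). Over all chromosomes 9.99% and 4.08% of that class did.

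The named falls included C50E3.11 and C50E3.13, which lie near each other on chromosome V. Other genes of that region were not examined. C50E3.11 (7602256 to 7603486) and C50E3.13 (7622327 to 7624252) had 3.8 and 3.93 CPM in SIN, against 29.5 and 29.4 CPM in WT, and for the second gene 6.67 and 7.12 CPM in SIN, against 39.9 and 39.6 CPM in WT (7.61-fold and 5.76-fold lower by edgeR, adjusted p = 0.000169 and 0.000186). The germline-class genes F18A11.6, annotated as a pseudogene, and enu-3.5 had 17 and 19.5 CPM in SIN, against 0.465 and 0.675 CPM in WT, and for the second gene 36.2 and 40.3 CPM in SIN, against 3.96 and 4.08 CPM in WT, and were 32.1-fold and 9.51-fold higher by edgeR (adjusted p = 0.000231 and 0.000169).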
